A study of Mus musculus with 6 samples.

Results

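Proline-type and glutamine-type 5′ tRNA fragments from mouse heart are sequences that begin at the 5′ end of a tRNA and share their first 8 nt with tRF_5_232 (GGCTCGTT) or with tRF_5_234 (GGTCCCAT). Members were taken from the 5′ class at a length of 35 nt or less, which gave 28 proline-type and 5 glutamine-type sequences, 33 of the 1336 sequences counted. The starts were chosen by the measured fall of tRF_5_232 and tRF_5_234 from control to knockout hearts, which was among the largest in the tables. Differences between knockout and control hearts are therefore given as a description, with no p-value. Where a member is said to be called, this is its place in the edgeR fit over all fragments (adjusted p under 0.05), from which nothing is read about the members. Small RNA was sequenced from whole hearts of C57BL/6 mice. The 3 control mice are labelled L/L (genotype Elac2 +/+ in the same labels), with loxP sites around an exon of Elac2 and no cre. The 3 knockout mice are labelled L/L, cre (genotype Elac2 -/-), with the same floxed exon and cre expressed from the muscle creatinine kinase promoter, as the labels spell it. Cells of the heart that do not use this promoter keep the gene. The labels give no age. Each mouse gave 1 library. Elac2 RNA was not analysed here, so the genotype labels were not checked against the deleted gene.

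Elac2 encodes RNase Z, the nuclease that removes the 3′ trailer from precursor tRNAs. Mature tRNAs fold into a cloverleaf, and 5′ fragments arise when the chain is cut in or near the anticodon arm, a short stem closed by the loop that holds the anticodon. Angiogenin is the best known nuclease that cuts in that loop, and fragments of this kind are called 5′ tRFs, or tiRNAs when they reach the loop. Proline tRNAs read codons that start with CC and have anticodons that end in GG. Glutamine tRNAs read CAA and CAG and have the anticodons TTG and CTG, in DNA letters.

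The proline-type sequences below are the 7 that passed the filter on low counts, all of 27 to 32 nt, and 3 longer ones that reach the anticodon. They are a ladder with a shared 5′ end, and capitals mark the bases beyond the 27-nt form.
tRF_5_183: ggctcgttggtctaggggtatgattct
tRF_5_203: ggctcgttggtctaggggtatgattctC
tRF_5_232: ggctcgttggtctaggggtatgattctCG
tRF_5_231: ggctcgttggtctaggggtatgattctCA
tRF_5_264: ggctcgttggtctaggggtatgattctCGC
tRF_5_294: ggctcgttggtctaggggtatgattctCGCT
tRF_5_326: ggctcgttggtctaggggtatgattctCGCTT
tRF_5_361: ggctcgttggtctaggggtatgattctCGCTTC
tRF_5_362: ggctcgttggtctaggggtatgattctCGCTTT
tRF_5_391: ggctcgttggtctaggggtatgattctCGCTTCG

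The glutamine-type ladder has 4 steps, and capitals mark the bases beyond the 28-nt form.
tRF_5_206: ggtcccatggtgtaatggttagcactct
tRF_5_234: ggtcccatggtgtaatggttagcactctG
tRF_5_268: ggtcccatggtgtaatggttagcactctGG
tRF_5_299: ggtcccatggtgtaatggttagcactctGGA

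The amino acid names were checked against longer sequences of the same class, shown here with the anticodon read from them in capitals.
tRF_5_482: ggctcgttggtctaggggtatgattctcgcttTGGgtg
tRF_5_547: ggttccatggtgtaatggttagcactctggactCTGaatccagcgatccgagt
The 38-nt sequence tRF_5_482 has the proline-type start and lies outside the length limit. It holds a 5-nt stem strand at bases 26 to 30, a 7-nt loop at bases 31 to 37 with TGG at bases 33 to 35, and only 1 base of the opposite strand, so the reading rests on 1 base pair. Among the members that reach base 33, the first anticodon base in this reading, 2 sequences have C, 3 have T and 1 has A there. RefSeq (GRCm38.p6) names 16 mouse proline tRNA genes with the prefix n-TP, of which 7 carry the anticodon tgg, 6 agg and 3 cgg, on 9 chromosomes. No anticodon could be read in a glutamine-type member, since the longest has 31 nt. The nearest longer sequence, the 53-nt tRF_5_547, has the glutamine anticodon CTG in a hairpin of 5 base pairs, with the stem strand at bases 27 to 31 and the loop at bases 32 to 38. It differs from tRF_5_234 over 29 nt by C4T (the base of tRF_5_234, its position from the 5′ end, the base of tRF_5_547). The name glutamine-type rests on that likeness. tRF_5_482 and tRF_5_547 had 1 count each over all libraries. No genome or tRNA gene sequences were at hand, so no genome position is given. A search of the 141767 GENCODE transcripts of GRCm38 found 0 of the 33 members whole. That set lacks nuclear tRNA genes, so the 0 says nothing about the members. A fragment of this kind cannot be traced to 1 gene copy.

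Libraries of the groups differed in depth, and this touches each count below. Control libraries held between 235046 and 773252 tRF counts, and knockout libraries between 45354 and 61712. The total small RNA depth is unknown here. TMM factors, which rescale the libraries so that most fragments keep their level, lay between 0.217 and 1.02 for controls and between 1.85 and 2.53 for knockouts. Over the 254 fragments that passed the filter on low counts, the median log2 fold change was 0.06 with TMM scaling and 2.13 with library totals alone. A fold change of a member is thus relative to the scaling, whereas shares within a family are not. In bulk hearts, fewer cells of a type and less RNA per cell cannot be told apart.

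Proline-type fragments of 27 to 29 nt were the common forms in control hearts and were few in knockout hearts. Control replicates 1, 2 and 3 held 649, 1756 and 2919 counts of these lengths, and the knockout libraries held 32, 63 and 49. As a share of all tRF counts this was 0.276%, 0.227% and 0.770% in controls and 0.0572%, 0.139% and 0.0794% in knockouts, so each knockout library lay below each control library on that scale too. The 30 to 32 nt forms took another course. Controls held 321, 401 and 722 counts of them, and knockouts 131, 96 and 156. As a share of tRF counts they stood at 0.137%, 0.0519% and 0.191% in controls and at 0.234%, 0.212% and 0.253% in knockouts, where each knockout library lay above each control library. On the TMM scale the same forms had a lower mean in knockouts, 1061 ± 276 against 2818 ± 1734 CPM (counts relative to the TMM-scaled total; SD, n = 3), with overlapping groups. The direction for the longer forms therefore depends on the scaling, while that for the shorter forms was the same under both.

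The balance of the lengths within the family needs no scaling. In control hearts the 27 to 29 nt forms made up 66.9%, 81.4% and 80.2% of the proline-type counts at 27 to 32 nt. In knockout hearts they made up 19.6%, 39.6% and 23.9%, with exact Clopper-Pearson 95% intervals of 13.8 to 26.6%, 31.96 to 47.7% and 18.2 to 30.3%. The mean was 76.2% ± 8.04 in control and 27.7% ± 10.5 in knockout hearts (SD, n = 3), a difference of −48.4 percentage points, and the groups did not overlap. Each single omission of a library left the difference between −54.4 and −44.4 percentage points. The exact intervals cover counting error only. Since tRF_5_232, whose fall chose the family, enters the shorter class, the lower share in knockouts was partly set by the choice.

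Length by length, the proline-type family had peaks at 27, 29 and 31 nt in control hearts and a trough at 30 nt. Of the family's counts, 27-nt forms took 26.3% ± 3.82, 28-nt forms 17.2% ± 1.17, 29-nt forms 31.1% ± 8.02, 30-nt forms 1.90% ± 1.41, 31-nt forms 20.7% ± 5.85 and 32-nt forms 0.692% ± 0.556 (SD, n = 3). In knockout hearts the 31-nt form led with 46.3% ± 8.23, and the 29-nt forms held 5.52% ± 4.13 (SD, n = 3). The 30-nt and 32-nt forms held 11.7% ± 1.88 and 9.82% ± 3.42 there (SD, n = 3). The 27-nt form was at 15.3% ± 7.55 (SD, n = 3) in knockouts and is the 1 length from 27 to 32 nt at which the shares of the groups overlapped, through knockout replicate 2 at 24.0% against 23.3% in control replicate 2. In the reading of tRF_5_482, forms of 27 to 29 nt end within the 5′ strand of the anticodon stem, the 30-nt form ends with its last base, and forms of 31 and 32 nt end inside the loop before the anticodon.

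Of the 28 proline-type members 7 passed the filter. They hold most of the counts in the length profile above, so their values repeat its order and add no separate evidence. tRF_5_232, the 29-nt sequence that defines the family, had 185, 686 and 911 counts in controls and 3, 12 and 8 in knockouts. On the TMM scale controls stood at 3609 ± 2630 and knockouts at 65.7 ± 41.2 CPM (SD, n = 3), with no overlap. By count it ranked 51, 26 and 18 among all sequences in the control libraries and 367, 162 and 189 in the knockout libraries. Its edgeR log2 fold change was −5.77 ± 0.92 (SE), and −3.20 ± 0.94 with library totals alone. The authors' deposited table gives −5.81 ± 0.82 for it.

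Other short forms likewise had fewer counts in each knockout library than in each control library. The 27-nt tRF_5_183 had 249, 515 and 1132 counts in controls and 21, 40 and 22 in knockouts (log2 fold change −4.04 ± 0.80 SE). The 28-nt tRF_5_203 had 177, 395 and 585 against 7, 6 and 18 counts (−4.71 ± 0.83 SE). For these, the lowest control library stayed above the highest knockout library in both counts and CPM. With library totals alone the values were −1.55 and −2.34, and tRF_5_183 was then no longer called.

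The longer forms stood apart from these. The 30-nt tRF_5_264 had 35, 22 and 44 counts in controls and 23, 16 and 25 in knockouts, a log2 fold change of −0.09 ± 0.69 (SE), or 2.004 with library totals alone, and its groups overlapped. The 32-nt tRF_5_326 had 12, 5 and 15 against 12, 12 and 20 counts (1.05 ± 0.71 SE, or 3.07 with library totals alone, where it was called higher). The 31-nt tRF_5_294, which ends on the first base of the loop, was the most abundant member in each knockout library, at 93, 65 and 97 counts, and had 272, 373 and 656 in controls. Its log2 fold change was −1.86 ± 0.65 (SE) with TMM and 0.47 with library totals alone. Its call was lost with upper-quartile scaling, with a minimum of 10 counts in at least 3 libraries, with the replicate block and by limma-voom. It was also lost without control replicate 3 and without knockout replicate 1, 2 or 3, where the log2 fold change ran from −1.91 to −1.30.

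By edgeR, 5 of the 7 tested proline-type fragments were called lower (tRF_5_183, tRF_5_203, tRF_5_231, tRF_5_232 and tRF_5_294) and 0 higher. Over the 7, the median of the log2 fold changes was −4.04, beside −0.33 over the 121 tested 5′ fragments of 35 nt or less. Of all tested fragments 16.9% were called lower and 15.7% higher, 43 and 40 of 254. With library totals alone 7 were lower and 104 higher. Because this contrast chose the members, nothing is read from the count or from the median over the 7. Without control replicate 3, 3 proline-type fragments were called, beside 60 over all fragments, and tRF_5_231 did not pass the filter there and was not tested. In 6 of the 9 tested members of the families each knockout library lay below each control library in CPM, against 18.5% of all tested fragments. These 6 include tRF_5_232 and tRF_5_234, whose fall chose the families, so nothing is read from this count either.

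A pair of 29-nt proline-type sequences differs only in the last base. tRF_5_231 carries G29A relative to tRF_5_232 (the base of tRF_5_232, its position from the 5′ end, the base of tRF_5_231). It had 38, 160 and 291 counts in controls and 1, 5 and 1 in knockouts, with a log2 fold change of −5.62 ± 1.05 (SE). The A form made up 21.5% of the pair's counts in controls (95% exact interval 19.9 to 23.3%, pooled over libraries) and 23.3% in knockouts (9.93 to 42.3%, 30 counts). In single control libraries the share was 17.0%, 18.9% and 24.2%, each outside the pooled control interval. The pooled intervals cover counting error only and leave out the spread between mice. Longer forms with the same base were rare: at 31 nt, tRF_5_293 with G29A had 1 count over the 6 libraries, while tRF_5_294 had 1556. In controls this was 0.0768% of that pair (0.00194 to 0.427%).

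A second base form concerned base 30. The sequences tRF_5_265, tRF_5_295, tRF_5_327 and tRF_5_363 carry C30G relative to tRF_5_264, tRF_5_294, tRF_5_326 and tRF_5_362. At 31 nt the G form held 0.230% of the pair's counts in controls (95% exact interval 0.0475 to 0.671%) and 1.92% in knockouts (0.627 to 4.43%). These shares rest on few counts of the G form: 1, 1 and 1 in control replicates 1, 2 and 3, and 3, 0 and 2 in the knockout replicates. At 32 nt it held 15.8% in controls (6.02 to 31.3%) and 22.8% in knockouts (12.7 to 35.8%), with libraries pooled. The pooled intervals at both lengths leave out the spread between mice. Single libraries decide these 32-nt values: control replicates 1, 2 and 3 held 1, 0 and 5 counts of the G form beside 12, 5 and 15 of tRF_5_326, and the knockout replicates 0, 3 and 10 beside 12, 12 and 20. In control replicate 2 and knockout replicate 1 the G form was seen at 31 nt (1 and 3 counts) and not at 32 nt.

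Members that reach the anticodon were scarce. Fragments of 33 to 35 nt summed to 8, 44 and 35 counts in controls and to 11, 5 and 9 in knockouts. Those with C at base 33 (tRF_5_361 and tRF_5_391) held 8, 40 and 23 of these counts in controls and 5, 2 and 4 in knockouts. Those with T at base 33 (tRF_5_362, tRF_5_363 and tRF_5_422) held 0, 4 and 11 in controls and 6, 3 and 5 in knockouts. Summed over these lengths, the C forms were the larger part in each control library. On the same sums, the T forms were ahead by 1 count in each knockout library. These sums mix lengths, since tRF_5_391 is longer than tRF_5_361 and held 2, 25 and 16 of the C counts in controls. At 33 nt, tRF_5_362 had 0, 4 and 8 counts beside 6, 15 and 7 of tRF_5_361 in controls. In knockouts it had 4, 2 and 5 beside 4, 0 and 4. Its pooled share was 30% in controls (exact 95% interval 16.6 to 46.5%) and 57.9% in knockouts (33.5 to 79.7%), with overlapping intervals. Just inside the length limit, the 35-nt tRF_5_422 had 1 count in control replicate 3 and 1 in knockout replicate 2, and just outside it tRF_5_482 had 1 count in control replicate 3.

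The other 21 proline-type members did not pass the filter. They had 1 to 46 counts each over the 6 libraries and 2.67% of the family's 7464 counts. They include each of the 11 members of 15 to 26 nt, which summed to 16, 9 and 22 counts in controls and 0, 3 and 7 in knockouts. The family therefore had few fragments that end before base 27 in either group.

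Glutamine-type fragments were nearly a single species in control hearts. The 29-nt tRF_5_234 held 131, 789 and 575 counts in controls, or 87.9% ± 1.73 of the family (SD, n = 3), and 4, 11 and 7 counts in knockouts. This was 3005 ± 2182 against 62.3 ± 32.9 CPM (SD, n = 3), with no overlap between the groups. Its edgeR log2 fold change was −5.58 ± 0.90 (SE), and −2.87 ± 0.88 with library totals alone. The authors' deposited table gives −5.69 ± 0.83.

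The form longer by 1 nt, tRF_5_268, had 19, 85 and 68 counts in controls and 14, 3 and 11 in knockouts. As counts the groups did not overlap, but in CPM they did, at 344 ± 231.3 against 75.7 ± 43.2 (SD, n = 3). Its log2 fold change was −2.16 ± 0.85 (SE), or 0.42 with library totals alone. It was not called by edgeR, but was called with size factors of DESeq2, with no filter and without control replicate 1. The 28-nt tRF_5_206 had 0, 3 and 18 counts in controls and 0 in each knockout library, where a count of 0 allows up to 3 counts, 0.00486% to 0.00661% of a library's tRF counts. The 16-nt tRF_5_16 and the 31-nt tRF_5_299 had 1 count each, both in controls. Thus 2 of 5 members passed the filter, and 1 of these was called lower and 0 higher, beside 16.9% lower and 15.7% higher of all tested fragments. This contrast chose the family, so nothing is read from that count either.

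Summed over the 5 members, the glutamine-type family held 151, 878 and 661 counts in controls and 18, 14 and 18 in knockouts. As a share of tRF counts each knockout library lay below each control library, at 0.0642%, 0.114% and 0.174% in controls and 0.0322%, 0.0309% and 0.0292% in knockouts. The proline-type family as a whole overlapped on that scale, at 0.423%, 0.286% and 0.976% in controls and 0.311%, 0.368% and 0.358% in knockouts. Its difference in mean share, −0.216 percentage points, was −0.00857 without control replicate 3. The ratio of proline-type to glutamine-type counts, which needs no scaling, was 6.58, 2.52 and 5.59 in controls and 9.67, 11.9 and 12.3 in knockouts. Each knockout library thus had a higher ratio. However, tRF_5_234, whose fall chose the glutamine-type family, held most of that family's counts in controls. The family's lower share and the higher ratio were therefore partly set by the choice. At 30 to 32 nt the ratios of the groups overlapped, at 16.9, 4.66 and 10.6 in controls and 9.36, 32 and 14.2 in knockouts.

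Forms of 27 to 29 nt also lost ground within the glutamine-type family, with wide intervals. They made up 87.3%, 90.2% and 89.7% of its counts at 27 to 32 nt in controls. In knockouts they made up 22.2% (exact 95% interval 6.41 to 47.6%), 78.6% (49.2 to 95.3%) and 38.9% (17.3 to 64.3%) of 18, 14 and 18 counts. The mean difference was −42.5 percentage points, from 89.1% ± 1.54 to 46.6% ± 28.9 (SD, n = 3). Knockout replicate 2 lay closest to the controls in both families. Since tRF_5_234, whose fall chose the family, is most of its shorter class, the lower share in knockouts was partly set by the choice.

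The families were also set side by side within libraries. No p-value is given, since the 29-nt sequences that chose the families make up much of the share compared. The 27 to 29 nt share was lower in the proline-type than in the glutamine-type family in 6 of 6 libraries, with a mean difference of −15.9 ± 12.8 percentage points (SD, n = 6). In the readings above, the 5′ stem strand ends at base 30 in tRF_5_482 and at base 31 in tRF_5_547. The same lengths thus end at different places of the anticodon arm in the 2 families. Taken as proline-type minus glutamine-type, the controls gave −20.4, −8.80 and −9.54 percentage points and the knockouts −2.59, −38.9 and −15.0. With any 1 library left out the mean ran from −18.5 to −11.3 percentage points. The differences in knockout replicates 1 and 3 were within the counting intervals of the glutamine-type shares. Whether the shift between groups differed between the families was not tested; the gap changed by −5.92 percentage points from control to knockout, and by 4.13 without knockout replicate 2.

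Shorter forms also lost share among the remaining 5′ fragments of 35 nt or less. There, the 27 to 29 nt share of the 27 to 32 nt counts was 29.04% ± 7.47 in control and 10.5% ± 2.12 in knockout hearts (SD, n = 3). Without the single most abundant sequence of the tables, the 31-nt tRF_5_284, it was 84.2% ± 1.09 and 35.99% ± 4.43 (SD, n = 3), a difference of −48.2 percentage points. That removal took counts from the 30 to 32 nt class alone. In control replicate 1 this class went from 132482 to 15193 counts, while the 76991 counts of 27 to 29 nt stayed. The −48.2 is therefore not comparable with the whole-family differences, −48.4 for the proline-type and −42.5 for the glutamine-type family. Besides the proline-type start, 6 starts had at least 100 counts at these lengths in each library. In each of the 6, every knockout library lay below every control library, with differences in mean share from −25.8 to −17.0 percentage points. As a ratio of the control to the knockout mean share, the proline-type start stood at 2.75, and 3 of the 6 others stood higher, at 4.80, 3.12 and 2.89. These are descriptions of the libraries, and no difference between starts was tested. The glutamine-type family had too few knockout counts to enter that list.

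Close relatives of the glutamine-type sequences outside the rule were read for comparison. The 29-nt sequence tRF_5_229 differs from tRF_5_234 by T3C, in capitals below.
tRF_5_229: ggCcccatggtgtaatggttagcactctg
It had 19, 23 and 37 counts in controls and 0, 2 and 0 in knockouts, and so was 12.7%, 2.83% and 6.05% of the pair's counts in the control libraries. For the proline-type family the nearest such sequence, tRF_5_204, differs from tRF_5_203 by C5T and had 1 count.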

How the data were processed

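The authors deposited raw counts per tRNA fragment sequence, and all 6 libraries were used. Per the labels' protocols, RNA was isolated with a miRNeasy kit, selected at 15 to 35 nt and sequenced in pairs with 4 technical replicates per mouse. The labels do not say how these were combined, which fragment set was searched or how reads that fit several sequences were counted. The tools named in the submitters' processing notes are cutadapt 1.1.4, Bowtie2 2.2.9 and DESeq2 1.16.1, with build mm10. The authors' deposited table gives log2 fold changes with standard errors and adjusted p-values. It holds an adjusted p for 16 of the 33 members.

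Counts were fitted with edgeR 4.0.16 in R 4.3.3 (quasi-likelihood, group as the only term, TMM, filterByExpr with a minimum count of 10) over all fragments, with Benjamini-Hochberg adjustment, and called at 0.05. Standard errors were derived as the size of the log2 fold change over the root of F. Alternatives used DESeq2 1.42.0, limma 3.58.1, other scalings and filters, other length windows, a replicate block and the omission of each library. Exact intervals were computed with SciPy 1.17.1. A sign-flip test of the families within libraries had been planned, and its p is not given because the sequences that chose the families enter it.

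Members, lists and tests were chosen with earlier results of these data known. Members were named when they passed the filter, defined a family or led their length from 27 to 32 nt; others named were chosen after their values were seen. The mice are taken as separate animals from the labels, and intervals cover counting error only.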

Additional observations from a re-analysis of the deposited data

How the results depend on the processing

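The fall of the 27 to 29 nt share kept its direction in both families under each alternative window and single omission of a library. It also did so with only members of a mean of at least 10 counts. The sequences that chose the families enter the shorter class of every window, so this direction was partly set by the choice. The definition by the first 15 nt returned the same 28 proline-type and 5 glutamine-type members, so it could not move the value. For the glutamine-type family, the window of 28 to 29 against 30 to 31 nt gave the same value too. With no filter 3 glutamine-type members were called, beside 99 over all fragments. With size factors of DESeq2 there were 2, beside 78 over all fragments. With 1 library left out, 3 to 5 proline-type and 1 to 2 glutamine-type members were called, beside 59 to 91 over all fragments. Nothing is read from these counts about the members. Without control replicate 2 or 3, tRF_5_231 did not pass the filter and was not tested. As a share of tRF counts without the most abundant sequence, the glutamine-type difference was −0.186 percentage points in place of −0.0867, and the proline-type difference −0.480 in place of −0.216, since that sequence leaves the total. The mean within-library difference ran from −18.5 to −11.3 percentage points with 1 library left out. The log2 fold change of tRF_5_264 changed sign: it was 2.004 with library totals alone, 0.35 with upper-quartile scaling, 0.11 with a minimum of 10 counts in at least 3 libraries, 0.0014 by limma-voom and from −0.30 to 0.31 with 1 library left out (0.31, 0.18 and 0.21 without control replicate 3, knockout replicate 1 and knockout replicate 2). With library totals alone tRF_5_294 was at 0.47 and tRF_5_268 at 0.42. The change in the gap between the families ran from −14.0 to 4.13 percentage points with 1 library left out, and the 4.13 was without knockout replicate 2. The cause of these changes was not tested.

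Replicate numbers did not pair the libraries: the same-numbered deviations correlated at −0.0054, 0.289 and 0.0452 over 254 fragments. With the replicate block 66 of 254 fragments were called in place of 83, with 4 proline-type and 1 glutamine-type member. Knockout totals limit the glutamine-type shares to 14 to 18 counts.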
